A study of Homo sapiens with 12 samples.

Results

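RNA polymerase II is the enzyme that transcribes protein-coding genes, and Mediator is the large complex that carries signals from DNA-bound activators to it. The genes described here are 56 of the 60649 genes counted in each library: 11 subunits of RNA polymerase II, 29 subunits of Mediator, and 16 kinases, cyclins and factors that act while the polymerase elongates. They were chosen by name, as members of this machinery, and each of the 56 symbols matched 1 gene identifier. All 56 were expressed highly enough to be tested.

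The libraries came from spheroids, small balls of cells grown in suspension, of SBC3, an established human small cell lung cancer line. Bulk RNA-seq was done on 12 libraries in 4 groups of 3: control, teriflunomide alone, lurbinectedin alone, and teriflunomide with lurbinectedin (the combination). The series title places the work in a search for drugs that act together with chemotherapy, by way of mitochondrial fission. The labels give no dose or length of treatment and do not say whether the 3 libraries of a group came from separate cultures, so the p-values below measure only the spread between these libraries, which may be technical.

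As background, the polymerase is recruited to promoters with Mediator and the general transcription factors, and soon afterwards pauses, held by NELF and DSIF. Release needs the kinase P-TEFb, made of CDK9 and a T-type cyclin, which the protein HEXIM1 holds inactive on a small nuclear RNA. CDK12 and CDK13, paired with cyclin K, keep the polymerase phosphorylated through long gene bodies. Lurbinectedin is an alkylating drug that binds guanines in the minor groove of DNA and is known to stall elongating RNA polymerase II, whose largest subunit is then degraded. Teriflunomide inhibits dihydroorotate dehydrogenase, the mitochondrial enzyme of pyrimidine synthesis.

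The promoters of 4 of these genes are shown because they stand at the ends of what follows: POLR2A encodes the largest subunit, HEXIM1 had the largest rise with lurbinectedin of the 56, and MED13L and MED27 the largest falls. Each line gives the 250 bases before the transcription start, 5′ to 3′ on the gene's own strand, from the RefSeq annotation of GRCh38.p14. Capitals mark matches on either strand to 4 short promoter motifs. The TATA box was searched as TATAAA. The CCAAT box was searched by the letters of its name. The GC box was searched as GGGCGG. The motif of the factor YY1 was searched as AAGATGGC. The POLR2A window is chr17:7484116-7484365 on the plus strand, the HEXIM1 window chr17:45148225-45148474 on the plus strand, the MED13L window chr12:116277694-116277943 on the minus strand, and the MED27 window chr9:132079868-132080117 on the minus strand.
POLR2A: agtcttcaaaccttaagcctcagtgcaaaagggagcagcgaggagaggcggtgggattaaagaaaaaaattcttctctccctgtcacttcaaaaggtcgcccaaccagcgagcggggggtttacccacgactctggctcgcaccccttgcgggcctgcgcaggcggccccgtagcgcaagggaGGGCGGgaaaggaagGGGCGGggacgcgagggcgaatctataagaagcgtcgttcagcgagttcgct
HEXIM1: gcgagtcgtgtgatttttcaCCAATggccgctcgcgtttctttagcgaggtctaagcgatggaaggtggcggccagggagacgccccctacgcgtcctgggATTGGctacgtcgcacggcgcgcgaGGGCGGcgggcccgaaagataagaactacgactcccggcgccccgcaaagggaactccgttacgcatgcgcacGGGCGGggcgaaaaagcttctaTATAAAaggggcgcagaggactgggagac
MED13L: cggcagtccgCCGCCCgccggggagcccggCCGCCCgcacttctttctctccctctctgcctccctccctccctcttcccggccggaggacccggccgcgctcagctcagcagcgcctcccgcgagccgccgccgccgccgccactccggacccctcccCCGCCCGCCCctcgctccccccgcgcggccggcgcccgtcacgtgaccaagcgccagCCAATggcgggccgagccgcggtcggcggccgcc
MED27: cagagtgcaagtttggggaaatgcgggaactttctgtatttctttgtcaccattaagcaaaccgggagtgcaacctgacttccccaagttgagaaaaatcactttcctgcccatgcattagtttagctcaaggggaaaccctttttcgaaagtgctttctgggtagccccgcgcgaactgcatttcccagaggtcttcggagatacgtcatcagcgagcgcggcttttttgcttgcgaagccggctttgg

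Counting the start site as position 0, the HEXIM1 window holds TATAAA at -29, CCAAT at -230 and, on the other strand, at -149, and GGGCGG at -124 and -51. The POLR2A window holds GGGCGG at -67 and -52, and the MED13L window holds CCAAT at -34 with 4 GC boxes on the other strand, of which the pair at -91 and -87 overlap. None of the 4 motifs was found in the MED27 window. Over windows of 300 bases (250 before and 50 from the start on), available for 44 of the 56 genes, the GC box was in 32 (72.7%) against 45.0% of 35116 promoters, and the YY1 motif in 8 (18.2%) against 2.89%. The TATA box was in 3 (HEXIM1, MED7 and MED16; 6.82%) against 11.5%, and the CCAAT box in 12 (27.3%) against 34.6%. Of the 44 windows, 7 lie over 1000 bases from the start of the counted gene model, that of MED7 by 16154 bases and that of NELFA by 32929; among the other 37, the GC box was in 29, the CCAAT box in 10, the YY1 motif in 6 and the TATA box in 2. These are matches of letters and say nothing about which factors bind there.

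Libraries held 23206414 to 33222162 counts. Levels are given in CPM, counts scaled to a common library total. Several neuroendocrine markers of small cell lung cancer were absent or near 0 in control: INSM1 and NCAM1 were at 0, and CHGA averaged 0.0633 CPM. NEUROD1 averaged 4.03 CPM, SYP 16.8 CPM and the tuft-cell gene POU2F3 0.15 CPM. Of markers of other cells, CD3E was at 0, PTPRC, EPCAM and PECAM1 averaged 0.0211, 0.0111 and 0.364 CPM, and the mesenchymal genes VIM and COL1A1 58.8 and 266 CPM. The share of counts from mitochondrial genes was 6.26% to 7.17% in control and 13.8% to 17.0% with lurbinectedin; its part in the lurbinectedin results was not tested. In the teriflunomide group replicate 3 stood apart, with 22.6% against 8.42% and 8.43%, and in the combination group replicate 2, with 24.9% against 13.1% and 14.6%. Results that rest on these 2 libraries are given with and without them, except where stated. CPM here are scaled by TMM normalization and are shares of a library, so more RNA of a gene and less RNA of other genes cannot be told apart, nor can fewer cells and less RNA per cell. "Rose", "fell" and "called" mean an adjusted p under 0.05 in edgeR's quasi-likelihood test, adjusted by Benjamini-Hochberg over the 16683 genes tested.

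In control the 56 genes spanned a wide range of levels. Per length, in TPM (counts divided by exonic length and scaled to a common total), POLR2A was the highest at 699 ± 45.1 (SD, n = 3), rank 125 of the 16683 genes tested, and SUPT16H, a subunit of the histone chaperone FACT, was next at 388. MED17, a scaffold subunit of the Mediator head, was the lowest at 1.46 TPM, and the median of the 56 was 43.3 TPM. By role the control medians were 101 TPM for the polymerase subunits, 75.4 for the elongation factors, 59.5 for the Mediator kinase module, 47.4 for the kinases and cyclins, 34.5 for the Mediator backbone and tail, 27.8 for the head and 20.2 for the middle. The ranges of all 7 roles overlapped. The deposited exonic lengths sum over all isoforms of a gene, so genes with long models, such as MED13L and MED17, read low per length. For comparison with the neighbourhood of POLR2A, the 35 tested genes within 250 kb of it had a median of 15.4 TPM in control, against 10.9 over all genes tested. Of these 35 genes, 3 were over 100 TPM, and the highest, EIF5A at 1221 TPM, lay above POLR2A.

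With lurbinectedin, HEXIM1, CDK9, POLR2A and most polymerase subunits rose, the 4 genes of the Mediator kinase module fell, and the Mediator middle, its backbone and tail, and the kinases and cyclins held changes in both directions. No difference between roles was tested. Against control, 33 of the 56 genes rose, 9 fell and 14 were not called, where 71.6% of all genes tested were called (36% higher and 35.7% lower). Changes of at least 2-fold were called for 13 genes upward and 4 downward (20.1% and 24% of all genes). The median log2 fold change was 0.44 over the 56 genes and 0.05 over all genes tested. The 3 lurbinectedin libraries lay wholly above the 3 control libraries for 39 genes and wholly below for 14, against 42.4% and 40.8% of all genes. Without TMM, scaling by library size alone, the median of all genes moved to -0.18. Of 16683 genes tested, 11012 were then called, and 39.2% of those calls were higher. With TMM 11953 were called, 50.2% of them higher. The counts for the 56 genes became 23 higher and 12 lower without TMM. The 39.2% and 50.2% are shares of called genes only, so they cannot be set against counts out of 56. Without teriflunomide replicate 3 and combination replicate 2, which enter the fit only through the shared spread, the counts were 36 higher and 13 lower, where 40.6% and 39.5% of all genes were.

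Marker genes moved with the same comparison. The 3 tested markers of other cell types all fell with lurbinectedin: COL1A1 (log2 -1.32) from a mean of 266 to 107 CPM, VIM (-0.72) from 58.8 to 35.6 CPM, and PECAM1 from 34 counts in all to 1. Their summed level was 319 to 332 CPM in control and 126 to 152 CPM with lurbinectedin. Of the 3 tested neuroendocrine markers, SYP (0.88) and CHGA (2.74) rose, CHGA from 6 counts in all to 34, and NEUROD1 (-1.31) fell; their summed level was 20.3 to 21.7 CPM in control and 31.9 to 34.3 CPM with lurbinectedin. The part of these changes in the results for the 56 genes was not tested.

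**Figure D1:**
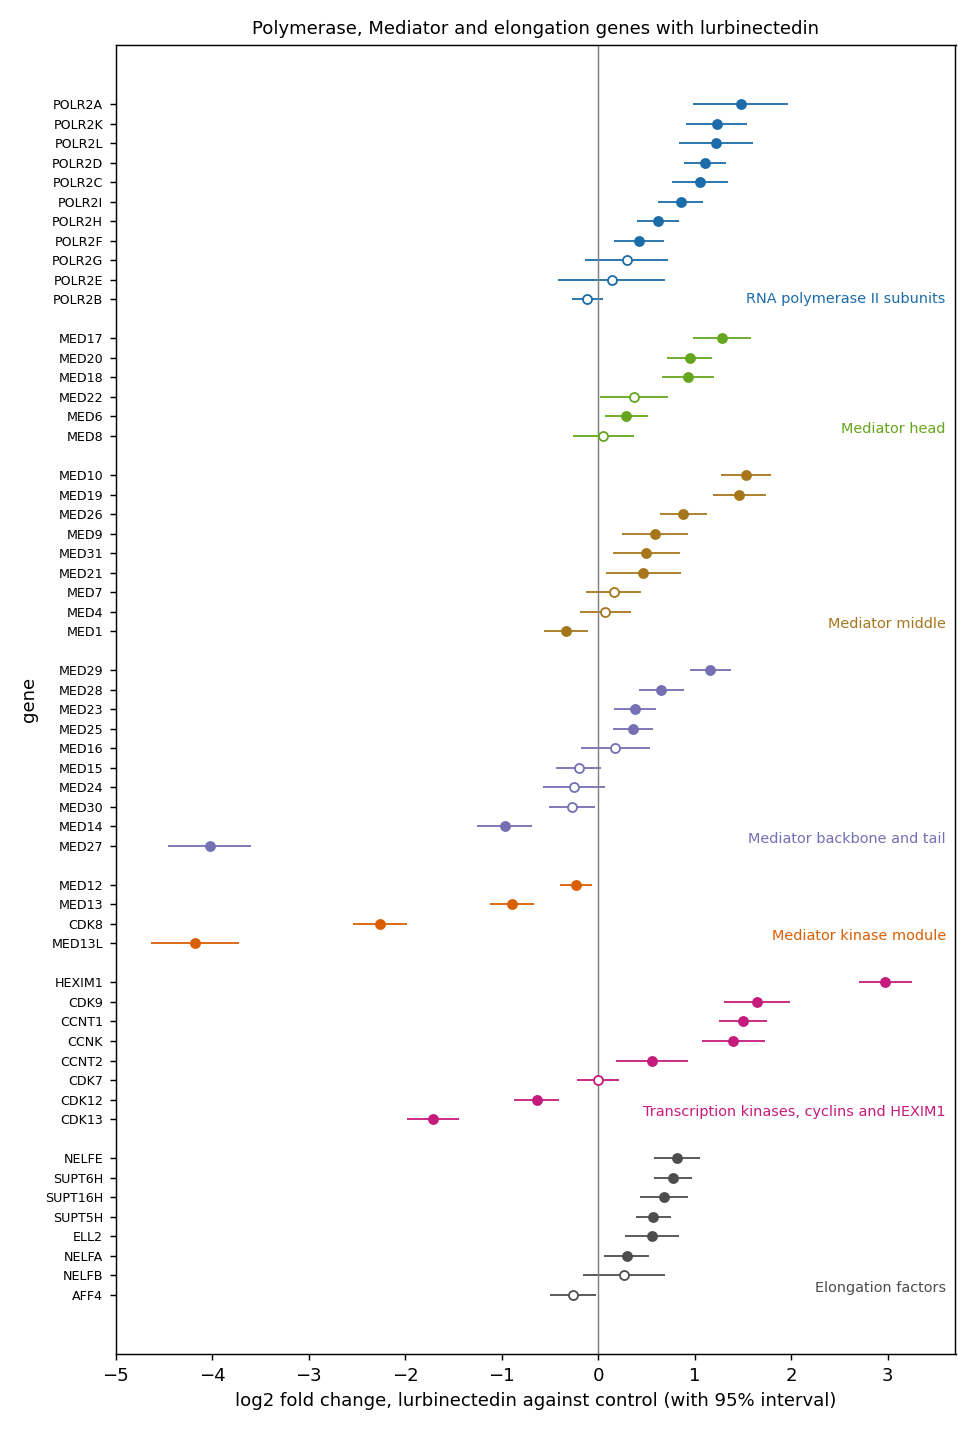
Log2 fold change with its 95% interval for each of the 56 genes, lurbinectedin against control, ordered within the 7 roles; filled points were called, open points were not, and the vertical line marks no change. The 4 genes of the Mediator kinase module lie below 0, from -4.18 to -0.23, while 10 of the 11 polymerase subunits lie above it.

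Among the polymerase subunits 8 of 11 rose and none fell, with a median log2 fold change of 0.85. POLR2A, the catalytic subunit whose C-terminal repeats are the target of the transcription kinases, was at 1332, 1472 and 1552 CPM in control and at 4414, 3739 and 3957 CPM with lurbinectedin. All lurbinectedin libraries lay above all control libraries, a 2.78-fold rise (log2 1.48, SE 0.252, edgeR adjusted p = 0.000126). POLR2A then ranked 56th of the tested genes per length, against 125th in control. POLR2K, a small zinc-binding subunit shared with RNA polymerases I and III, rose from 42.3, 42.1 and 42.4 to 108, 93.2 and 95.4 CPM (log2 1.23, SE 0.163, edgeR adjusted p = 1.16e-05). Its 3 control libraries differed from each other by less than 1 CPM. Other subunits that rose were POLR2L (log2 1.22), POLR2D (1.10), POLR2C (1.05), POLR2I (0.85), POLR2H (0.62) and POLR2F (0.42). POLR2B, the second-largest subunit, was not called, at -0.11 with a 95% interval of -0.28 to 0.05, and neither were POLR2E (0.14, SE 0.283) and POLR2G (0.29, SE 0.220). The interval for POLR2A was 0.98 to 1.97, and the difference between subunits was not tested. POLR2L shares 22.8% of its exonic length with CD151 on the opposite strand. POLR2I shares 19.1% with TBCB, which had more counts than it, and 69.0% with ENSG00000279504, which had 44 counts over all libraries, both on the opposite strand. The strand setting of the counting is not given, so both values are uncertain.

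In the Mediator head, which contacts the polymerase, 4 of 6 genes rose and none fell (median 0.65). MED17, the head scaffold, was at 6.64, 5.62 and 5.86 CPM in control and at 15.3, 15 and 13.8 CPM with lurbinectedin (log2 1.28, SE 0.155, edgeR adjusted p = 4.85e-06). MED20 rose from 24.6, 24.4 and 23.7 to 48.3, 43.5 and 48.2 CPM (log2 0.94, SE 0.117, edgeR adjusted p = 5.56e-06). The groups did not overlap for either gene. MED17 shares 88 exonic bases (0.53% of its length) with TAF1D on the opposite strand. TAF1D had 51482 counts over all libraries against 3278 for MED17, so the MED17 level is less certain. MED18 (0.93) and MED6 (0.29) also rose, while MED22 (0.37) and MED8 (0.05) were not called.

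In the middle, the hinge between head and tail, 6 of 9 genes rose and 1 fell (median 0.50). MED10 was at 14.2, 14.6 and 13.9 CPM in control and at 45.1, 36.2 and 42.2 CPM with lurbinectedin, a 2.89-fold rise (log2 1.53, SE 0.133, edgeR adjusted p = 1.62e-07). MED19 rose from 9.12, 9.86 and 9.26 to 29, 23.3 and 25.4 CPM (log2 1.46, SE 0.140, edgeR adjusted p = 4.66e-07). Both are small subunits, and neither had a lurbinectedin library within its control range. MED1, the subunit that binds nuclear receptors, went the other way, from 102, 109 and 109 to 82.7, 82.6 and 88.4 CPM (log2 -0.34, SE 0.116, edgeR adjusted p = 0.0184). This call was lost without control replicate 2 (edgeR adjusted p = 0.056) or without control replicate 3 (edgeR adjusted p = 0.0536). The other rises were MED26 (0.88), which docks elongation factors, MED9 (0.59), MED31 (0.50) and MED21 (0.47), and MED7 (0.16) and MED4 (0.07) were not called. MED31 shares 58.4% of its exonic length with TXNDC17 on the opposite strand, which had more counts, so its value is uncertain.

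The backbone and tail, which reach towards the activators, split: 4 of 10 genes rose, 2 fell, and the median was -0.01. MED29 rose from 39.0, 39.1 and 38.6 to 90.9, 82.7 and 87.0 CPM (log2 1.16, SE 0.108, edgeR adjusted p = 3.23e-07). MED28 rose from 105, 107 and 98.8 to 175, 160 and 153 CPM (log2 0.65, SE 0.118, edgeR adjusted p = 0.000203). In both genes the groups stood clear of each other. MED27, the third of these small tail-side subunits, fell from 20.2, 19.8 and 21.3 to 1.31, 1.45 and 1.02 CPM, which is 27, 37 and 28 counts (16.3-fold lower; log2 -4.03, SE 0.219, edgeR adjusted p = 1.71e-09). MED14, the backbone on which the head, middle and tail assemble, fell from 98.1, 99.3 and 95.9 to 45.8, 48.6 and 55 CPM (log2 -0.97, SE 0.147, edgeR adjusted p = 4e-05). Neighbouring subunits of the complex thus differed in the direction of their mRNA. MED23 (0.38) and MED25 (0.36) rose slightly, and MED15, MED16, MED24 and MED30 were not called (-0.27 to 0.18).

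The kinase module, a detachable part that blocks Mediator's binding to the polymerase, was the only role in which every member fell: 4 of 4 genes, median -1.58. MED13L, which links the module to the core as the paralogue of MED13, was at 96.2, 110 and 108 CPM in control and at 5.43, 6.02 and 5.82 CPM with lurbinectedin. The fall was 18.1-fold (log2 -4.18, SE 0.232, edgeR adjusted p = 2.02e-09). CDK8, the kinase itself, fell from 63.6, 60.3 and 59.9 to 12.5, 11.8 and 14.0 CPM (4.80-fold lower; log2 -2.26, SE 0.144, edgeR adjusted p = 7.76e-09). MED13 fell by 0.90 (SE 0.117) and MED12, the activator of the kinase, by 0.23 (SE 0.0856) on the log2 scale. The fall of MED12 was small, and it was not called in combination against teriflunomide (log2 -0.06). MED13L, CDK8 and MED13 each span over 100 kb, and 86.2% of all tested genes of that span were called lower. The CPM ratio of MED13L to MED13, on a log2 scale, went from -0.57 ± 0.06 in control to -3.86 ± 0.05 with lurbinectedin (SD, n = 3), so the paralogues did not fall equally.

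Among the kinases, cyclins and HEXIM1, 5 of 8 genes rose and 2 fell (median 0.98). HEXIM1, the inhibitor of P-TEFb, was at 43.1, 44.9 and 45.7 CPM in control and at 371, 341 and 338 CPM with lurbinectedin. This 7.85-fold rise was the largest of the 56 genes (log2 2.97, SE 0.141, edgeR adjusted p = 5.2e-10). CDK9, the kinase that HEXIM1 restrains, rose from 52.2, 53.9 and 54.3 to 187, 152 and 163 CPM (3.12-fold; log2 1.64, SE 0.173, edgeR adjusted p = 1.19e-06). CCNT1, its main cyclin partner, rose from 167, 169 and 165 to 490, 460 and 467 CPM (2.82-fold; log2 SE 0.125, edgeR adjusted p = 1.14e-07). The kinase and its cyclin rose by similar amounts: the CPM ratio of CCNT1 to CDK9 was 3.13 in control and 2.84 with lurbinectedin, with SDs of 0.04 and 0.11 on the log2 scale. The log2 CPM ratio of HEXIM1 to CDK9 went from -0.26 ± 0.01 to 1.07 ± 0.09 (SD, n = 3), so the inhibitor rose more than the kinase. The second T-type cyclin, CCNT2, rose less than CCNT1 (log2 0.55, SE 0.191), and the log2 CPM ratio of CCNT1 to CCNT2 went from 1.53 to 2.47. These ratios are of CPM, not per length, and only their change between groups is read.

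The kinases of the gene body fell while their cyclin rose. CDK13 was at 93.2, 99.6 and 97.6 CPM in control and at 27.0, 31.5 and 29.9 CPM with lurbinectedin (3.28-fold lower; log2 -1.71, SE 0.140, edgeR adjusted p = 8.79e-08). CDK12 fell from 195, 213 and 212 to 133, 123 and 142 CPM (log2 -0.64, SE 0.120, edgeR adjusted p = 0.000282). CCNK, encoding cyclin K, rose by log2 1.40 (SE 0.167), so that the log2 CPM ratio of CCNK to CDK13 went from -0.06 ± 0.03 to 3.05 ± 0.17, and that of CCNK to CDK12 from -1.16 to 0.88. CCNK shares 59.5% of its exonic length with CCDC85C on the opposite strand, which had fewer counts, so its level is less certain than those of the kinases. CDK7, the kinase of TFIIH that starts phosphorylation at the promoter, was the member closest to no change. It was at 27.1, 25.2 and 24.5 CPM in control and at 26.1, 24.4 and 26.2 CPM with lurbinectedin, with overlapping groups (edgeR adjusted p = 0.985). The 95% interval of its log2 change was -0.22 to 0.22.

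The elongation factors rose in 6 of 8 genes and none fell (median 0.56). NELFE, the RNA-binding subunit of the pausing complex NELF, rose from 78.2, 79.5 and 77.8 to 151, 129 and 134 CPM (log2 0.81, SE 0.122, edgeR adjusted p = 3.77e-05). SUPT6H, a histone chaperone that travels with the polymerase, rose from 248, 262 and 268 to 465, 422 and 446 CPM (log2 0.77, SE 0.101, edgeR adjusted p = 9.61e-06). In neither gene did the groups overlap, and both changes stayed under 2-fold. SUPT16H (0.68), SUPT5H of DSIF (0.57), ELL2 (0.55) and NELFA (0.29) also rose. NELFB (0.26, SE 0.216) and AFF4, the scaffold of the super elongation complex (-0.26, SE 0.120, edgeR adjusted p = 0.0627), were not called.

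**Figure D2:**
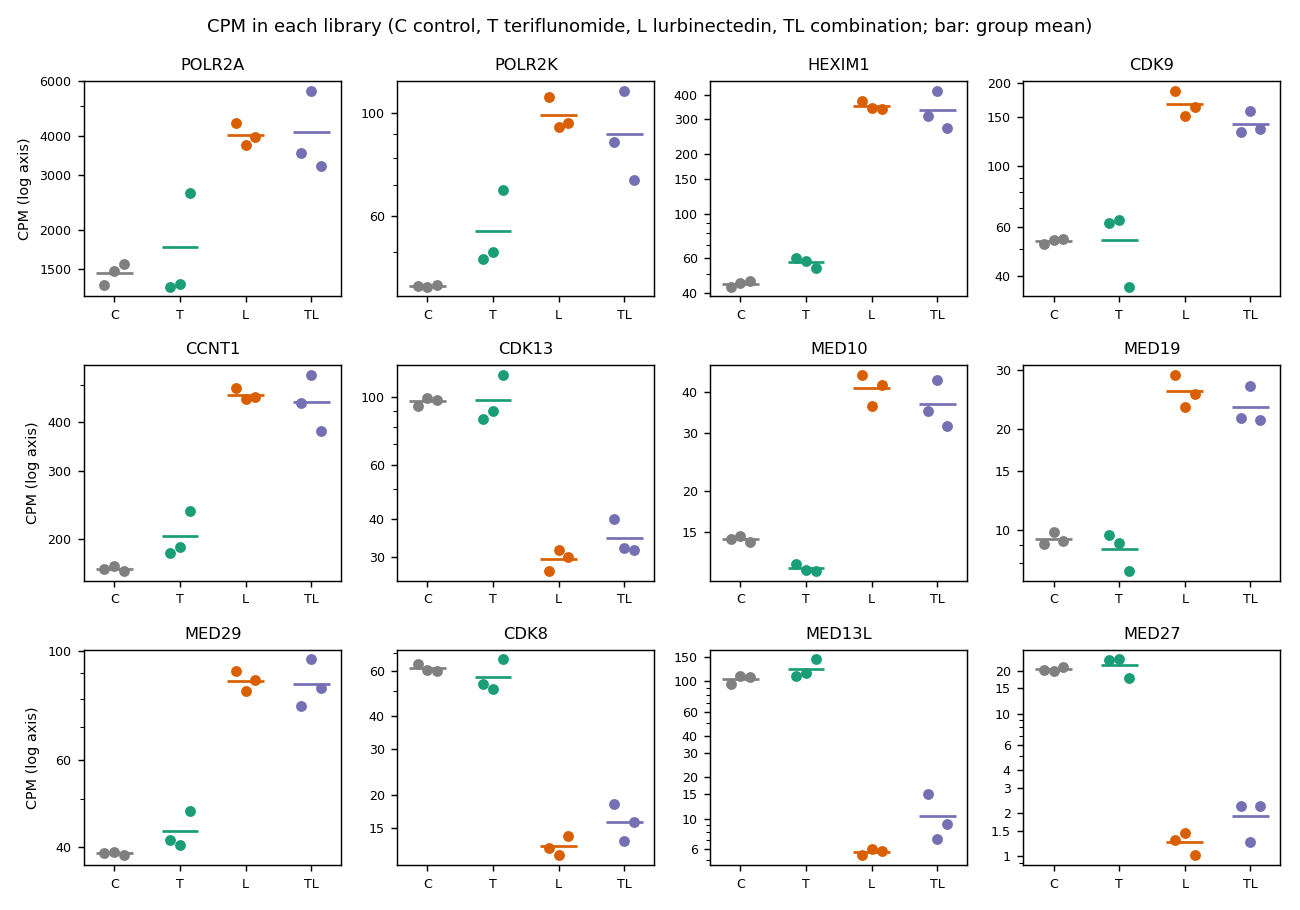
CPM (log axis) of 12 of the genes in each of the 12 libraries, with C for control, T for teriflunomide, L for lurbinectedin and TL for the combination; points are libraries and bars are group means. HEXIM1, CDK9 and CCNT1 are higher, and CDK13, CDK8, MED13L and MED27 lower, in all 6 libraries with lurbinectedin than in all 6 without it.

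The direction of change was related to the length of the gene on the chromosome, here its span from start to end, introns included. Spans are those of the deposited gene models over all isoforms, so a span can exceed that of the transcript in use. All 6 members over 100 kb fell with lurbinectedin: MED13L (320 kb), MED27 (227 kb), CDK8 (151 kb), CDK13 (149 kb), MED13 (123 kb) and CDK12 (103 kb). Their median log2 fold change was -1.99, and over all 2711 tested genes of that span it was -2.14, with 86.2% called lower. Of the 17 members under 10 kb, 13 rose and none fell, with a median of 0.93; over all 4968 such genes the median was 0.67, with 52.8% called higher. Across the 56 members the Spearman correlation of span with log2 fold change was -0.620, and across 16651 nuclear genes it was -0.572. These correlations are across genes in the same 12 libraries and are given as a description.

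Between 50 and 100 kb the members and all tested genes had medians of different sign, by the spans of the deposited models. The 10 members of that span had a median of 0.33, with 6 higher and 1 lower, whereas all 2521 genes of that span had a median of -0.66, with 61.1% called lower. Among the members that rose, the promoter window of NELFA lies 32929 bases from its model start, so its span is uncertain. CCNK shares much of its exonic length with CCDC85C, as given above. The members highest above their span were HEXIM1, at log2 2.97 in a bin with a median of 0.67, and CCNK, at 1.40 in a bin with a median of -0.66. Over the 56 genes, 37 lay above and 19 below the median of all genes of their span, with a median difference of 0.41 on the log2 scale. MED13L and MED27 lay below even the median of genes over 100 kb, CDK8 was close to it at -2.26, and CDK13, MED13 and CDK12 lay above it.

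**Figure D3:**
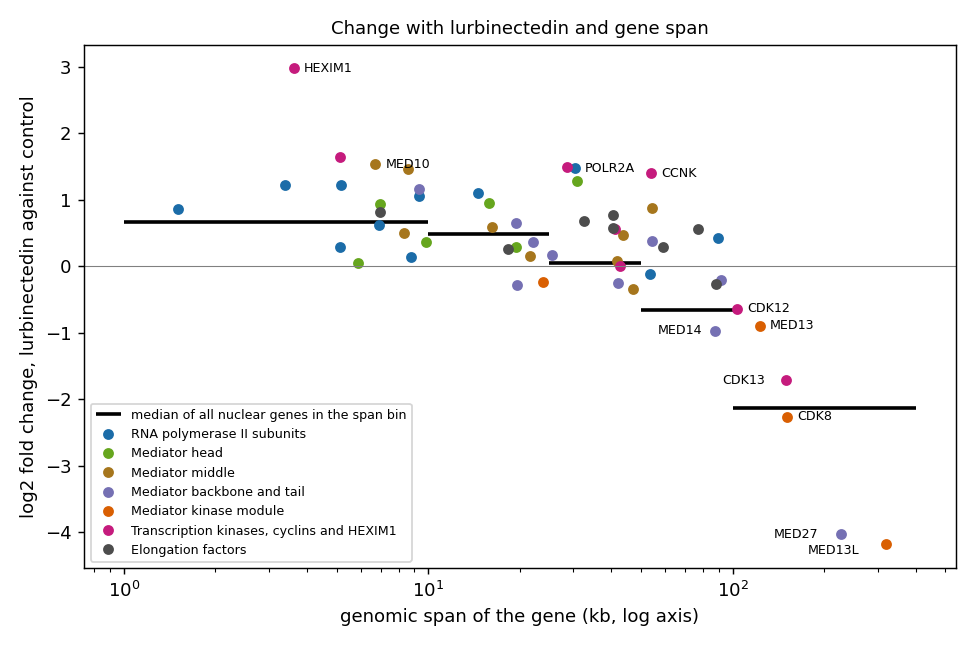
Log2 fold change, lurbinectedin against control, of the 56 genes against genomic span in kb (log axis), coloured by role; black bars are medians of all tested nuclear genes in 5 span bins. The bars fall from 0.67 under 10 kb to -2.14 over 100 kb, and HEXIM1 (2.97), POLR2A (1.48) and CCNK (1.40) lie above the bar of their bin.

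Teriflunomide alone changed few of these genes: 2 rose and 1 fell of 56, where 6.01% of all genes tested were called (3.88% higher and 2.13% lower). The median log2 fold change was -0.03 over the 56 genes and 0.03 over all genes. ELL2, an elongation factor that joins P-TEFb in the super elongation complex, rose from 11.3, 11.1 and 10.5 to 17.4, 17.6 and 23.1 CPM (1.76-fold; log2 0.82, SE 0.142, edgeR adjusted p = 0.00592). All teriflunomide libraries were above all control libraries, with replicate 3 the highest. AFF4, the scaffold of that complex, went from 167, 173 and 173 to 200, 220 and 281 CPM (log2 0.45, SE 0.120, edgeR adjusted p = 0.0435). POLR2H, a subunit shared by all 3 nuclear polymerases, fell from 43.3, 38.8 and 41.3 to 31.3, 31.6 and 27.4 CPM (log2 -0.45, SE 0.110, edgeR adjusted p = 0.0301). The calls of AFF4 and POLR2H were lost when scaling by library size alone, and also without control replicate 1, 2 or 3 or teriflunomide replicate 2 (edgeR adjusted p = 0.0611 to 0.156 for AFF4 and 0.0525 to 0.137 for POLR2H). ELL2 remained called in all of these fits.

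The third teriflunomide library lay apart from the others of its group for several of these genes. It gave the highest POLR2A value of its group, 2633 CPM against 1313 and 1341, and the lowest CDK9 value, 36.5 CPM against 61.8 and 63.7. With it and combination replicate 2 left out, 3 of the 56 genes were called higher and 5 lower, where 16.5% of all genes tested were called (9.31% higher and 7.23% lower). HEXIM1 was then called higher (log2 0.41, edgeR adjusted p = 0.00105), from 43.1 to 45.7 CPM in control and 60.3 and 57.9 CPM in the remaining teriflunomide libraries. The 5 called lower were CDK12 (-0.44), POLR2H (-0.39), MED22 (-0.36), POLR2I (-0.32) and POLR2B (-0.24). ELL2 stayed called at 0.67 and AFF4 at 0.29.

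The combination resembled lurbinectedin in its direction. Against control, 29 of the 56 genes rose and 10 fell, where 68.4% of all genes tested were called (34.1% higher and 34.4% lower), and the medians were 0.36 and 0.04. By role the rises and falls were 7 and 1 of 11 polymerase subunits, 3 and 0 of 6 head genes, 5 and 1 of 9 middle genes, 4 and 3 of 10 backbone and tail genes, 0 and 3 of 4 kinase-module genes, 5 and 2 of 8 kinases and cyclins, and 5 and 0 of 8 elongation factors. HEXIM1 was at 312, 418 and 273 CPM (log2 2.91, SE 0.140, edgeR adjusted p = 7.7e-10). POLR2A was at 3529, 5587 and 3201 CPM (2.83-fold; log2 SE 0.252, edgeR adjusted p = 0.000122), with replicate 2 the highest. Without that library and teriflunomide replicate 3 the log2 change of POLR2A was 1.21, and the counts were 30 higher and 11 lower, where 37.5% and 37.3% of all genes were.

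Of the other members given by library, those that rose with lurbinectedin lay above control in the combination too. CDK9 was at 133, 157 and 135 CPM, CCNT1 at 449, 530 and 379 CPM, and POLR2K at 86.7, 112 and 71.6 CPM. MED10 was at 35.0, 43.5 and 31.6 CPM, MED19 at 21.6, 26.8 and 21.3 CPM, MED17 at 13.7, 15.2 and 12.3 CPM, and MED20 at 33.7, 41.2 and 39.5 CPM. All of these libraries lay above the control libraries. MED29 was at 77.2, 96.1 and 83.9 CPM, MED28 at 152, 186 and 134 CPM, NELFE at 110, 125 and 120 CPM, and SUPT6H at 408, 485 and 394 CPM. ELL2 was at 22.3, 21.7 and 17.6 CPM and POLR2H at 47.6, 49.0 and 57.0 CPM, again all above control. Most of these genes are printed because they rose most with lurbinectedin, so the lack of overlap here is not a separate result. Over all 56 genes, the combination lay wholly above control for 30 and wholly below for 13. The share over all genes is not given for this comparison, so these counts cannot be read as particular to the 56 genes. CDK7, at 25.4, 27.7 and 26.3 CPM, overlapped control, as did AFF4 at 198, 178 and 160 CPM; neither was called, with log2 changes of 0.05 and 0.06 against control.

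The genes that fell with lurbinectedin lay near or above their lurbinectedin values in the combination. They were chosen by their fall with lurbinectedin, which in itself favours higher values in other libraries. MED13L was at 15.1, 7.17 and 9.09 CPM (log2 -3.32 against control, SE 0.219) and MED27 at 2.24, 1.26 and 2.23 CPM (log2 -3.40, SE 0.205). CDK8 was at 18.4, 13.3 and 15.8 CPM (log2 -1.95), CDK13 at 39.9, 32.1 and 31.6 CPM (log2 -1.49), and MED14 at 63.8, 55 and 58.1 CPM (log2 -0.73). For MED13L every combination library was above every lurbinectedin library, and for MED27 replicate 2 was not. Over the 56 genes, the combination lay wholly above lurbinectedin for 4 and wholly below for 15. The share over all genes is not given here, so these counts cannot be read as particular to the 56 genes. CDK12, at 141, 146 and 126 CPM, and MED1, at 85.0, 86.9 and 86.0 CPM, overlapped the lurbinectedin values. Against control, MED1 (log2 -0.31) and POLR2H (0.32) lost their calls in 4 and 3 of the fits without 1 library, with edgeR adjusted p up to 0.0776 and 0.0808.

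Set directly against lurbinectedin alone, the combination had 0 of 56 genes called, where 0% of all genes tested were called. The smallest adjusted p of any gene was 0.145, and 2599 genes had an unadjusted p under 0.05 in edgeR. DESeq2 called 584 genes, of which 3 were among the 56 (1 higher and 2 lower). Without teriflunomide replicate 3 and combination replicate 2, 7 of the 56 genes were higher and 18 lower in the combination than with lurbinectedin, where 22% of all genes tested were called (11.7% higher and 10.3% lower). The 7 higher were MED13L (log2 1.06, edgeR adjusted p = 0.000823), MED27 (0.84), CDK8 (0.42), AFF4 (0.33), MED14 (0.29), CDK13 (0.28) and MED13 (0.26). The 18 lower included 10 polymerase subunits, from POLR2F (-0.56) and POLR2L (-0.54) to POLR2A (-0.26), together with CDK9 (-0.32), HEXIM1 (-0.26) and CCNK (-0.23). Without combination replicate 2 alone, MED13L was the single call (log2 1.07, edgeR adjusted p = 0.0387). With all 12 libraries the 6 members over 100 kb differed by 0.05 to 0.86 (median 0.27) between the combination and lurbinectedin, and all genes of that span by a median of 0.30.

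The effect of lurbinectedin was also measured in the presence of teriflunomide, from libraries that share none with the first comparison. Combination against teriflunomide gave 28 of 56 genes higher and 10 lower, where 70.9% of all genes tested were called (35.2% higher and 35.8% lower). Of the 56 genes, 27 rose in both settings, 8 fell in both and 0 were called in opposite directions, against 31.1%, 32.5% and 0.0599% of all genes tested. The log2 fold changes had the same sign for 54 of the 56, called or not, and for 91.6% of all genes. Their Pearson correlation was 0.988 across the 56 genes and 0.952 across all genes, and the median absolute difference was 0.14 and 0.23. The largest difference was that of MED13L, -4.18 without and -3.55 with teriflunomide. AFF4 was not called without teriflunomide (-0.26) and fell with it (-0.39, edgeR adjusted p = 0.0105). Teriflunomide replicate 3 and combination replicate 2 stand on opposite sides of combination against teriflunomide. Without both, 12230 genes were called over all genes tested, against 11835 in the main fit. The counts for the 56 genes are not given for that fit, and the agreement between settings was not recomputed. The interaction, which tests whether the lurbinectedin effect differs between the settings, called 0 of 56 genes, where 0.258% of all genes tested were called (0.036% higher and 0.222% lower), and gave 0.63 for MED13L (SE 0.295, edgeR adjusted p = 0.488).

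Without the 2 libraries that stood apart, the interaction called 5 of the 56 genes higher and 8 lower, where 11.1% of all genes tested were called (5.99% higher and 5.1% lower). The 5 higher were MED13L (0.97), CDK8 (0.65), MED14 (0.46), CDK12 (0.45) and CDK13 (0.43), all of them genes that fell with lurbinectedin. The lurbinectedin change against control enters the interaction with a minus sign, so an opposite direction of the interaction is partly built in. How often this held over all genes was not computed. Of the 8 lower, HEXIM1 had the largest value (log2 -0.66, edgeR adjusted p = 0.000698), followed by CDK9 (-0.55) and POLR2K (-0.53). The calls thus depended on these libraries, although the signs for these genes were the same with all 12.

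**Figure D4:**
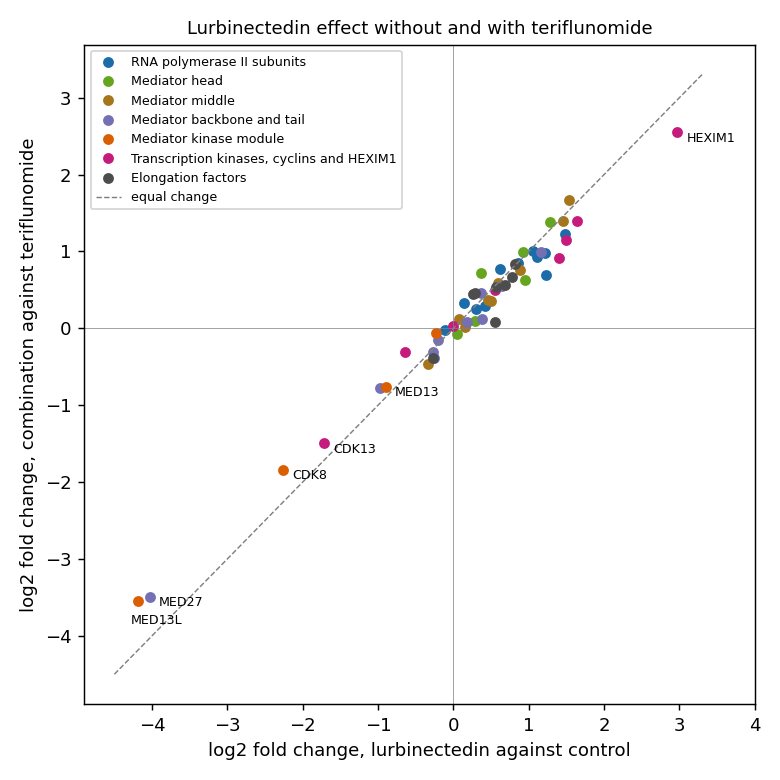
Log2 fold change with lurbinectedin for the 56 genes, without teriflunomide on the x axis and with it on the y axis, coloured by role; the dashed line marks equal change. The points follow the line from MED13L (-4.18 and -3.55) to HEXIM1 (2.97 and 2.55).

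Other genes of the pathway, taken from lists by function, did not move in a single direction with lurbinectedin. Of 8 further subunits of the polymerase, Mediator and their kinases, none rose and 5 fell (median -0.90). The 5, named after their values were seen, were the kinase-module genes MED12L (-3.86, SE 0.271), CDK19 (-3.41) and CCNC (-0.73), and the CDK7 partners MNAT1 (-3.24) and CCNH (-1.06). Of 29 tested general transcription factors of 30 listed, 11 rose and 9 fell (median 0.02), from TAF9 (2.76) to GTF2F2 (-2.71). Of 25 tested pausing and elongation factors of 27 listed, 8 rose and 10 fell (median -0.15); MEPCE, which caps the small nuclear RNA that HEXIM1 uses, rose most (1.88), and MLLT3 of the super elongation complex fell most (-5.30). Of 14 subunits of Integrator, the complex that ends early transcription, 4 rose and 9 fell (median -0.68), from INTS5 (1.14) to INTS9 (-4.28). Of 15 subunits of RNA polymerases I and III, 6 rose and 3 fell (median 0.16), from POLR1C (1.97) to POLR3B (-3.22). The medians of the 56 genes and of these lists stand beside 0.05 over all genes tested.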

How the data were processed

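RNA was extracted with a silica-column kit and made into libraries with an mRNA kit, per the labels' protocols. The authors deposited raw counts per gene with gene coordinates and exonic length (in bases, per the file headers); reads had been trimmed with fastp 0.23.2, aligned to hg38 with STAR 2.7.9 and counted with featureCounts, per the submitters' processing notes. Strand setting, multimapping and annotation release are not given in the sources used here. Gene symbols came from a table of identifiers (60463 of 60649 matched, 99.7%), and promoter sequences from RefSeq (GRCh38.p14). Counts were normalized by TMM, filtered with filterByExpr (16683 genes) and tested with edgeR 4.0.16 (quasi-likelihood, robust; R 4.3.3) in 1 model over all 12 libraries, with SE from the F statistic and normal 95% intervals. The biological coefficient of variation was 14.5%. Log2 CPM used a prior count of 2. DESeq2 1.42.0, other scalings, filters, thresholds, a replicate block and left-out libraries were alternatives. Members and lists were chosen with earlier results of these data known. Values in every library were given for POLR2A, CDK7, CDK9, CCNT1 and HEXIM1, for the 2 largest called rises and 2 largest called falls of each of the 7 roles with lurbinectedin, and for up to 4 called members of smallest adjusted p with teriflunomide, in combination against lurbinectedin and in the interaction. The fitting code was checked on simulated counts with few changed genes, equal numbers of rises and falls, and no outlying library. That check does not cover the scaling where most genes were called, as with lurbinectedin here.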

Additional observations from a re-analysis of the deposited data

How the results depend on the processing

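Of 190 recomputed counts of called genes among the 56, 150 stayed within 1.5 times the value reported. For teriflunomide against control, the 2 genes higher became 1 with library size as the only scaling, with the replicate block, with only the groups compared or at an adjusted p under 0.01, and 0 in a test against a 1.5-fold change (TREAT); the 1 lower became 0 under those 5 settings, 5 with no expression filter, 3 with DESeq2, and 5 without teriflunomide replicate 3 and combination replicate 2, a setting chosen after seeing the data. Calls over all genes moved too: for teriflunomide they were 1002 in the main fit. They were 265 by library size, 415 with the block, 247 with only the groups compared, 230 at 0.01 and 33 with TREAT. With no filter they were 1800, with DESeq2 1907, and without the 2 libraries 2761. With only the groups compared, 14 genes rather than 9 were lower with lurbinectedin. Over all genes, 13709 rather than 11953 were then called in either direction, and 50.2% of the calls were higher in both fits. TREAT left 19 higher with lurbinectedin, 13 higher and 4 lower in combination against control, and 16 higher and 4 lower in combination against teriflunomide. Over all genes, TREAT called 8028, 7267 and 7854 in these comparisons, against 11953, 11418 and 11835 in the main fit. Of these TREAT calls, 46.3%, 46.2% and 45.9% were higher. Combination against lurbinectedin gave 1 higher and 2 lower with no filter or with DESeq2, 1 lower with only its groups, and 7 higher and 18 lower without the 2 libraries, a fit in which the interaction gave 5 and 8. Over all genes, that comparison called 612 with no filter, 584 with DESeq2 and 154 with only its groups. Without the 2 libraries it called 3673, and the interaction 1851. Leaving out 1 library at a time gave 28 to 31 genes higher and 7 to 10 lower with lurbinectedin, 26 to 28 and 8 to 10 in combination against control, 27 to 32 and 8 to 11 in combination against teriflunomide, 1 to 2 and 0 to 4 for teriflunomide, 0 to 1 and 0 to 0 in combination against lurbinectedin, and 0 to 1 and 0 to 0 for the interaction. Over all genes these fits called 11012 to 11196 with lurbinectedin and 10442 to 10897 in combination against control. They called 11271 to 12339 in combination against teriflunomide and 227 to 1561 for teriflunomide. For combination against lurbinectedin the calls were 0 to 332, and for the interaction 2 to 617. The values that changed sign were near 0 and never called: CDK7 in combination against control (-0.12 by library size, -0.013 with no filter), AFF4 there (-0.11 by library size, and -0.014 without combination replicate 1 in a range of -0.014 to 0.136 over left-out libraries), and CDK7 with lurbinectedin (0.041 without control replicate 1 and 0.019 without lurbinectedin replicate 2, in a range of -0.034 to 0.041). Of 663 recomputed values of single genes, 624 kept direction and side of the threshold. Same-numbered libraries showed no sign of pairing: their deviations correlated at -0.402 to 0.144 (median -0.03, 18 pairs), and those of other pairs at -0.206 to 0.363. With 3 libraries per group and 2 that stood apart, these values cannot exclude pairing. With the replicate block the counts were 30 higher and 9 lower with lurbinectedin and 28 higher and 9 lower in the combination. Over all genes, that fit called 11591 and 11044. The causes of these differences were not tested. At 23206414 counts or more, depth limited mainly MED27, at 27 to 37 counts with lurbinectedin.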
